A study of Mus musculus with 9 samples.

Results

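Mouse embryonic stem (ES) cells labelled as Dicer knockouts were compared with wild-type ES cells on Affymetrix mouse gene ST arrays, which measure each gene by probes spread along its transcript. Dicer KO and WT had 3 arrays each. These are 6 of the 9 arrays of the series, and the other 3, of a Dgcr8 knockout, were left out. The WT cells were the v6.5 line, no group was treated, and each genotype was plated in triplicate, which the methods call biological replicates. The sources describe 1 line per genotype and do not name the parent line of the Dicer KO cells, so an effect of the knockout and a difference between lines cannot be told apart. The p-values measure the spread between these arrays, and no source says that the plates came from separate cultures. Of the 35557 transcript clusters in the deposited table, 23001 were counted. These carried a gene symbol and were neither mitochondrial nor Y-linked nor made up of miRNA genes alone. Levels are log2 signals, differences are log2 ratios of Dicer KO to WT, and the value after ± is the standard error of the fit with n = 3 arrays per genotype.

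Dicer is the RNase III enzyme that cuts hairpin precursors into mature miRNAs, which guide Argonaute proteins and their TNRC6 partners to mRNAs that pair with the miRNA seed. A bound mRNA is deadenylated and decays, or is translated less. ES cells are known for a few large families of miRNAs, chiefly those of the miR-290 cluster, whose reported targets include inhibitors of the step from G1 to S phase. The let-7 family is better known from differentiated cells, and the Lin28 proteins block its processing. The Rbl2 protein, itself a reported target of the miR-290 family, is known to hold down the de novo DNA methyltransferases.

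Mature sequences of these families are printed because the groups of reported targets are named after them. They were taken from RefSeq (GRCm38.p6), run 5′ to 3′, and carry the seed, bases 2 to 8, in capitals. The miR-290 cluster members and the miR-17 family members have seeds that overlap by all but 1 base, and the let-7 seed is unrelated.
mmu-miR-291a-3p: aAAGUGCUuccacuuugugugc
mmu-miR-294-3p: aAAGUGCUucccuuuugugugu
mmu-miR-295-3p: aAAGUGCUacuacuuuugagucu
mmu-miR-17-5p: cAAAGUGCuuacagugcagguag
mmu-miR-20a-5p: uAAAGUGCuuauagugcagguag
mmu-let-7a-5p: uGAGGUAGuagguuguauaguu
mmu-let-7g-5p: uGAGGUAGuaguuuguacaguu
The miR-294-3p sequence lies at chr7:3220691-3220712 and miR-291a-3p at chr7:3218968-3218989, both on the plus strand. The arrays measured no mature miRNA, so the loss of these molecules was not measured here.

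Dicer1 itself read 10.18, 10.18 and 10.23 in WT and 8.33, 8.43 and 8.32 in Dicer KO. The difference of -1.84 ± 0.05 was called (limma, Benjamini-Hochberg adjusted p = 2.8e-06). Signal from probes outside the deleted exons can remain on such an array, so the level left in the mutant is not a measure of residual enzyme.

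Across the 23001 transcripts, 3921 were called higher in Dicer KO (17.0%) and 4102 lower (17.8%) at an adjusted p under 0.05. Together that was 34.9% of all transcripts, and every gene group below is to be read against these shares. The rises were larger than the falls: the median fold was 1.43 among transcripts called higher and 1.29 among those called lower. At 2-fold or more, 665 transcripts were higher and 219 lower, and at 8-fold or more, 16 were higher and 6 lower. The median difference over all transcripts was -0.06, and calls were made mostly among bright transcripts. In the brightest 25% of transcripts 28.8% were called higher and 27.3% lower, against 2.23% and 5.25% in the dimmest 25%. A list of mostly bright genes is therefore better read against the shares of the brightest 25%. Replicates of a genotype correlated at 0.996 to 0.998, and arrays of different genotype at 0.978 to 0.982 (Pearson's r across transcripts, which are not independent).

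**Figure D1:**
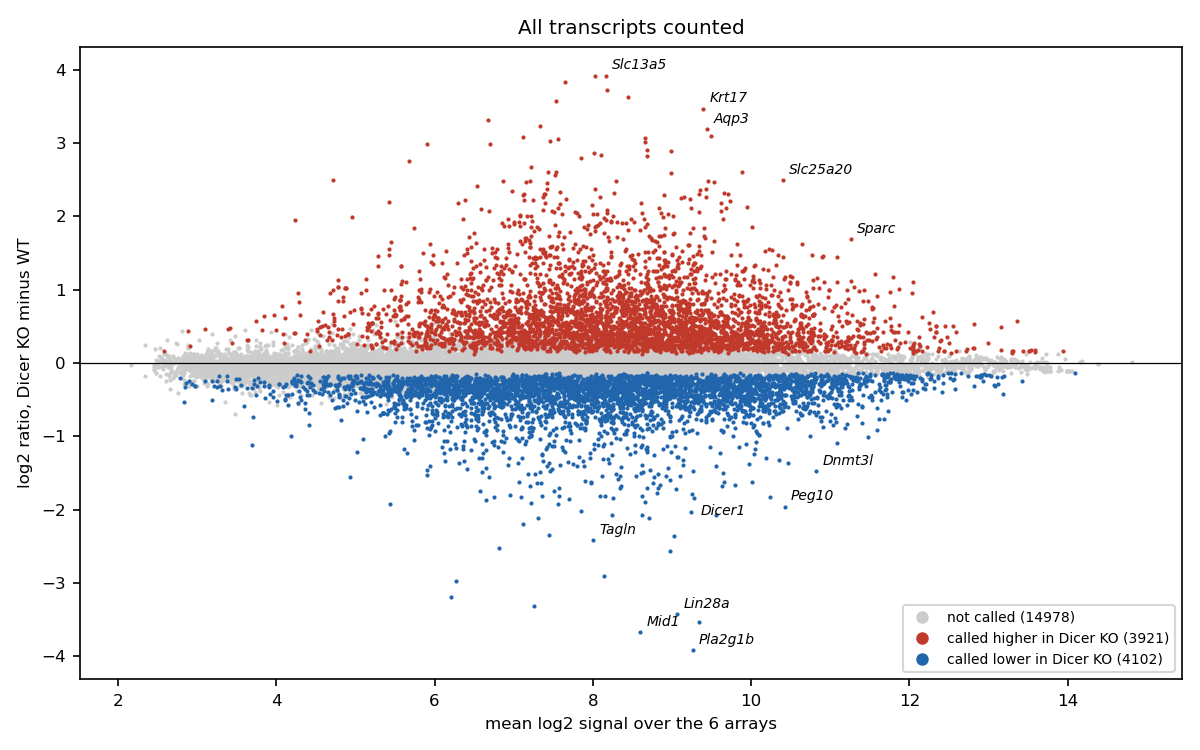
Each point is 1 transcript, with its mean log2 signal over the 6 arrays on the x axis and its log2 ratio of Dicer KO to WT on the y axis. Of the 3921 transcripts called higher 665 changed by 2-fold or more, against 219 of the 4102 called lower. The differences of highest size lie at middle signal.

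The cells carried the markers of ES cells in both genotypes. Pou5f1, the central pluripotency factor, read 12.30, 12.44 and 12.41 in WT and 12.82, 12.80 and 12.78 in Dicer KO. Of 12 ES cell markers 6 were higher in Dicer KO and 3 lower. Nanog rose by 1.10 ± 0.04, Dppa5a by 0.58, Fgf4 by 0.50 and Sox2 by 0.42, whereas Utf1 fell by 0.51 and Sall4 by 0.26. Lin28a moved by far the most. Of 15 markers of feeder cells and fibroblasts, Fn1 was higher and Mmp2 lower, with differences of 0.20 and -1.02, and the call of Fn1 was lost in 4 of the 6 fits that left out an array. The collagen genes Col1a1, Col1a2 and Col3a1 lay between 6.40 and 7.48 on every array, and Lum and Fap between 3.22 and 3.75.

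The sex-chromosome genes differed between the lines. The Y-linked gene Uty read 7.79, 8.14 and 7.97 in WT and 6.01, 6.19 and 6.08 in Dicer KO. Eif2s3y, another Y-linked gene, read 8.22, 8.65 and 8.54 against 6.98, 7.0 and 7.0. The groups did not overlap for either gene, while Kdm5d was dim on all arrays, at 4.19 to 4.64. Not every Y-linked cluster was lower: Sry read 7.21, 7.11 and 7.05 in WT and 6.99, 7.15 and 7.13 in Dicer KO. Whether the Sry signal is expression or background was not tested. The median of all 78 Y-linked clusters, most of them dim, was 3.92 to 3.94 in WT and 3.82 to 3.92 in Dicer KO. Xist, the RNA that coats an inactive X chromosome, was dim in both genotypes, at 4.95 to 5.52 in WT and 5.68 to 6.07 in Dicer KO.

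X-linked transcripts moved as a group. Among transcripts with a signal above the median, the 363 on the X chromosome had a median log2 ratio of 0.36, or 1.28-fold, against -0.02 for 10652 autosomal transcripts. Autosome medians ran from -0.11 to 0.05. Of the X-linked transcripts 231 (63.6%) were called higher and 43 lower, where autosomal transcripts were called higher in 28.3% and lower in 26.7%. Per array, the X-linked median relative to the autosomes was -0.22, -0.15 and -0.15 in WT and 0.18, 0.20 and 0.16 in Dicer KO. The difference of 0.35 did not overlap between genotypes, with an exact two-sided permutation p of 0.10, the smallest that 3 arrays against 3 allow. The labels give no sex for the lines, and the part of the missing Dicer in the rise of X-linked genes cannot be told apart from a difference in sex chromosomes between the lines. X-linked genes are therefore named as such. For the reported let-7 targets and the epiblast, trophoblast, contractile, lysosome, sterol and one-carbon lists the counts are also given without that chromosome, and in the other lists its removal lowered a count by at most 1.

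The 12 largest rises, chosen among transcripts of a single named gene whose genotypes did not overlap, reached from 8-fold to 15-fold. Slc13a5, a plasma-membrane citrate carrier, read 6.11, 6.27 and 6.22 in WT and 10.09, 10.18 and 10.09 in Dicer KO, a rise of 3.92 ± 0.06. Loxl4, a lysyl oxidase that cross-links collagen, was measured by a pair of clusters, and they rose by 3.91 and 3.32. Krt17, an intermediate filament protein of epithelia, read 7.70, 7.62 and 7.65 in WT and 11.16, 11.05 and 11.16 in Dicer KO. Aqp3, a channel for water and glycerol, read 7.75, 7.98 and 7.83 against 11.07, 11.04 and 11.02. For all of these the lowest Dicer KO array lay more than 2 units above the highest WT array. Fetub, a secreted inhibitor of metalloproteinases, rose by 3.07 ± 0.17 and Xaf1, which binds the apoptosis inhibitor Xiap, by 3.08 ± 0.14. Prss35, a protease-like protein, rose from below the median signal to above the level of 4 in 5 transcripts, with a ratio of 3.06. Tbc1d8b, which rose by 3.23, is X-linked and was the only X-linked gene of the 12.

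The 12 largest falls, chosen likewise, ran from 5.15-fold for Myc to 15.1-fold for Pla2g1b. Pla2g1b, a secreted phospholipase A2, read 11.24, 11.21 and 11.21 in WT and 7.45, 7.19 and 7.27 in Dicer KO, a difference of -3.92 ± 0.07. Slc38a4, an imprinted amino acid transporter, read 10.99, 11.14 and 11.15 against 7.55, 7.52 and 7.64. Both genes went from signals in the top 10% of all transcripts to near the middle. Myc read 10.06, 10.34 and 10.20 in WT and 7.85, 7.80 and 7.86 in Dicer KO, a difference of -2.36 ± 0.07. Fndc3c1, Map7d3 and Mid1, with ratios of -3.19, -2.52 and -3.67, are X-linked and so fell against the direction of most bright genes of that chromosome.

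Among transcripts in the top 10% by signal, the rises were smaller. Slc25a20, the mitochondrial carrier of acylcarnitines for fatty acid oxidation, read 9.01, 9.24 and 9.19 in WT and 11.65, 11.62 and 11.67 in Dicer KO, a rise of 2.50 ± 0.07. Pdgfc, a growth factor, rose by 1.56, the clathrin light chain gene Cltb by 1.54 and the membrane protease gene St14 by 1.53. In the other direction Nt5dc2, a 5'-nucleotidase-like gene, fell by 1.83 ± 0.06 and Emb, which encodes the surface glycoprotein embigin, by 1.30 ± 0.05. Neither set overlapped between genotypes, as was true of 48.0% of all transcripts.

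The reported targets of the miR-290 family rose as a group. Of 16 measured, 12 were called higher and 1 lower, with a median of 0.67 against -0.06 over all transcripts, and none is X-linked. Lats2, a kinase of the Hippo pathway, read 6.25, 6.81 and 6.43 in WT and 8.68, 8.67 and 8.66 in Dicer KO. Cdkn1a, the inhibitor p21 of cyclin-dependent kinases, read 7.55, 7.50 and 7.55 against 9.38, 9.30 and 9.37. Rbl2 read 7.0, 6.93 and 7.04 against 8.43, 8.35 and 8.44. The genotypes were well apart for all 3 genes, with ratios of 2.17 ± 0.13, 1.82 ± 0.05 and 1.42 ± 0.05. The actin-binding Pfn2 rose by 1.70, the phospholipase Ddhd1 by 1.37, the methyl-CpG binding protein Mbd2 by 1.25 and the protease Casp2 by 0.99. Smaller rises were those of Ei24 (0.79), the receptor genes Tgfbr2 (0.55) and Bmpr2 (0.46), the GTPase gene Rhoc (0.52) and the mitotic-entry kinase gene Wee1 (0.31). Dpysl2, a regulator of microtubules in axons, went the other way and fell by 0.97, and Arid4b, Fbxl5 and Dkk1 were not called, with ratios of 0.10, 0.13 and -0.12. Several of these genes are known as targets from miRNA-deficient ES cells, so the direction of the list is not independent evidence.

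Members of the silencing machinery moved unequally. Of 27 genes for miRNA processing and silencing 8 were higher and 9 lower, with a median of 0.01. Those lower include Dicer1, the targeted gene. Most rises were on the effector side. Mov10, an RNA helicase that works with Argonaute, read 10.27, 10.42 and 10.38 in WT and 11.82, 11.79 and 11.79 in Dicer KO, a rise of 1.44 ± 0.05. Ago1 read 8.91, 9.0 and 9.03 against 9.96 on each Dicer KO array. Tnrc6a rose by 0.94, Tnrc6b by 0.76 and Tnrc6c by 0.49, so that all 3 scaffold genes were called. Ago2 rose by 0.21 in its brighter cluster and, at -0.09, was not called in the other. Ago3 and Ago4 were not called. On the processing side, the exporter of precursors Xpo5 fell by 0.62 and the Dicer partner Tarbp2 by 0.35, Dgcr8 rose by 0.19, and Drosha, with a ratio of -0.14, was not called.

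The machinery of mRNA decay followed no single direction, with 8 of 33 genes higher and 9 lower, counts that ran from 5 to 9 and from 5 to 12 over other settings. The members with the largest differences were the deadenylase genes Cnot6l and Cnot6 and the deadenylase adaptor Tob1. Cnot6l read 8.57, 8.76 and 8.64 in WT and 9.96, 9.98 and 9.94 in Dicer KO, and Cnot6 read 9.57, 9.76 and 9.73 against 10.87, 10.86 and 10.84. The ratios were 1.30 ± 0.06 and 1.17 ± 0.06, and that of Tob1 was 1.25 ± 0.08. No member fell by as much as 0.5, the lowest ratio being -0.42.

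Reported let-7 targets were mostly lower, 14 of 27 against 5 higher, with a median of -0.25. Lin28a, the RNA-binding protein that blocks let-7 processing, read 10.69, 10.77 and 10.88 in WT and 7.50, 7.11 and 7.43 in Dicer KO, a ratio of -3.43. Its paralog Lin28b was not called, at -0.15. Igf2bp3, an oncofetal RNA-binding protein, fell by 1.16, Mycn by 0.81, Nras by 0.57 and the ubiquitin ligase gene Trim71 by 0.39. Exceptions included Ccnd2, Hmga2 and Tgfbr1. Ccnd2, a D-type cyclin, read 7.98, 8.02 and 8.07 in WT and 10.26, 10.26 and 10.33 in Dicer KO, a rise of 2.26 ± 0.05, and Hmga2, a chromatin protein, rose by 0.92. Myc and Dicer1 are members as well. Dicer1 is the targeted gene, so its place among the lower members was set by the genotype. Without its single X-linked member the list had 13 of 26 lower.

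Genes that govern G1 and S phase rose more often than they fell, 12 of 30 against 5. Besides Ccnd2, Cdkn1a and Rbl2, the pocket protein gene Rbl1 rose by 1.26 ± 0.09 and the cyclin gene Ccnd3 by 0.58. Ccnd1 and Cdk6 were not called, at -0.12 and 0.12. Of the E-type cyclins that drive S phase entry, Ccne1 fell by 0.38 and Ccne2 rose by 0.69. The kinase inhibitor gene Cdkn1c fell by 1.04 and the repressor gene E2f8 fell by 0.79. Both inhibitors and activators of the cycle were therefore found on either side.

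Genes of DNA replication and mitosis were lower in 15 of 39 cases and higher in 5, by small amounts, and the count lower ran from 9 to 19 over other settings. The origin factor Orc1 fell by 0.51, the mitotic kinase Plk1 by 0.48 and thymidylate synthase, Tyms, by 0.35. The largest rise, 0.68, was that of Pola1, a subunit of DNA polymerase alpha, which is X-linked, and Rfc3, of the clamp loader, rose by 0.51. No member changed by 2-fold.

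Of 32 p53 targets and apoptosis genes 10 were higher and 9 lower. Among targets of p53, Btg2 rose by 0.70 and the membrane protein gene Perp by 0.93, whereas Mdm2 fell by 0.35 and Zmat3 fell by 0.83. Casp8, an initiator caspase, rose by 0.83, and Bid, which it cleaves, fell by 0.84. Xiap, X-linked, rose by 1.11.

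Several factors of the naive pluripotent state rose. Of 32 pluripotency transcription factors and associated genes 16 were higher and 10 lower. Tbx3 read 7.76, 7.91 and 8.01 in WT and 9.94, 9.85 and 9.86 in Dicer KO, and Prdm14, a repressor of lineage and methylation genes, read 7.19, 7.24 and 7.36 against 9.18, 9.21 and 9.17. Klf2 read 8.98, 9.09 and 8.95 against 10.53, 10.44 and 10.49. The rises of these 3 genes were 1.99 ± 0.07, 1.93 ± 0.06 and 1.48 ± 0.06, and Tfcp2l1 rose by 1.45, Klf4 by 0.60 and Klf5 by 0.43. Not all naive markers went up. Dppa3, also known as Stella, fell in both of its clusters, with ratios of -2.11 and -2.97, and Gbx2 fell by 1.11. Among the other members of the list Zfp281 fell by 0.82.

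Genes of the epiblast and neural ectoderm were lower in 14 of 29 cases and higher in 5, with a median of -0.23. Lef1, a transcription factor at the end of the Wnt pathway, read 8.01, 8.30 and 8.20 in WT and 6.23, 6.64 and 5.89 in Dicer KO. The basic helix-loop-helix factor Neurod1 read 7.30, 7.89 and 7.58 against 5.51, 5.83 and 5.82. Ratios were -1.91 ± 0.18 and -1.87 ± 0.16. Otx2, Pou3f1 and Fgf5, markers of the primed state, fell, with ratios of -0.58, -0.92 and -0.44. Pim2, which is X-linked, fell by 1.67 ± 0.06. The 5 members that rose were the adhesion genes Ncam1 (1.55) and Cdh2 (0.64) and the transcription factor genes Zic5 (0.49), Pax6 (0.43) and Zic2 (0.34). Without the X-linked members 12 of 27 were lower.

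Of 29 mesoderm and gastrulation genes, Kdr was higher and Mesp1 lower, the latter call being lost in 5 of the 6 fits that left out an array. Kdr, the receptor for vascular endothelial growth factor, read 5.66, 5.38 and 5.58 in WT and 7.73, 7.62 and 7.57 in Dicer KO. Primitive endoderm genes were higher in 5 of 25 cases and lower in 5, with 5 members changed by 2-fold or more. Of the lineage's transcription factors Gata4, Gata6 and Sox17 were not called and lay between 5.29 and 7.16, while Sox7 fell by 0.31. Among the members that changed were genes for matrix and endocytic proteins. Sparc, which modulates cell contact with matrix, rose by 1.69 ± 0.05, and the endocytic receptor genes Lrp2 and Cubn and their adaptor Dab2 fell, with ratios of -1.54, -1.46 and -1.15.

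Of 27 trophoblast genes 8 were higher and 7 lower. Cdx2 and Eomes, which specify the lineage, were not called and read 6.21 to 6.62 on the 6 arrays. Among the lineage's other transcription factors Gata3 and Elf5 rose by 0.44 and 0.41, and Tfap2c, at 0.14, was not called. Id2 read 8.45, 8.71 and 8.70 in WT and 10.09, 10.09 and 10.12 in Dicer KO, and rose by 1.48. Rhox9 and Rhox6, homeobox genes on the X chromosome, rose by 2.05 and 1.46, Tead4 by 0.88 and Ets2 by 1.02. The largest falls of the list were those of Bmp4 and Peg10, with ratios of -2.02 and -1.96. Near-identical copies in the Rhox family may share probes. Without the X-linked members 6 of 23 were higher.

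Germline and meiosis genes rose in 14 of 33 cases and fell in 6. Sohlh2, a transcription factor of early germ cells, read 6.45, 6.40 and 6.39 in WT and 8.79, 8.73 and 8.73 in Dicer KO, a rise of 2.34 ± 0.04. Hormad1, of the meiotic chromosome axis, read 7.46, 7.59 and 7.88 against 9.22, 9.26 and 9.09. Stag3, a meiotic cohesin subunit, rose by 1.09, and Smc1b, another, by 3.58. Some other genes of the meiotic axis and cohesin were lower or not called: Sycp3 fell by 0.41, Rec8 fell by 0.17, and Sycp2, at -0.22, was not called. The calls of Sycp3 and Rec8 were lost in 5 and 3 of the 6 fits that left out an array. Stra8, the gatekeeper of meiosis, fell by 0.43, with adjusted p of 0.031 that stayed under 0.05 in 2 of the 6 fits leaving out an array, and Ddx4, at -0.22, was not called. The number of members called lower ran from 2 to 7 over the other settings tried. The receptor tyrosine kinase gene Kit rose by 1.16, and Piwil2, of the piRNA pathway, by 0.90.

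Genes marked in the 2-cell embryo were higher in 9 of 22 cases and lower in 1. Zscan4c read 6.07, 6.20 and 6.11 in WT and 8.71, 8.74 and 8.74 in Dicer KO, and Calcoco2, an autophagy receptor placed in this list, read 7.74, 7.97 and 8.12 against 11.09, 11.04 and 11.01. Many members are families of near-identical copies, so that single copies are uncertain. The count called higher ran from 5 to 10 over the other settings.

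Of 46 members of the FGF, MAP kinase and LIF pathways 14 were higher and 19 lower. Several genes that FGF signalling induces and that restrain it were lower. Dusp4, a phosphatase of MAP kinases, read 8.03, 8.36 and 8.27 in WT and 6.02, 6.10 and 5.94 in Dicer KO, and Spry2 read 10.38, 10.32 and 10.49 against 8.96, 8.87 and 8.86. The ratios were -2.20 ± 0.09 and -1.50 ± 0.06, and Dusp6 fell by 0.91 and Spry1 by 0.82. Not all genes of these families fell: Spry4 and Spred1, at -0.11 and 0.10, were not called, nor was Dusp5, and Dusp1 rose by 0.43. The receptor gene Fgfr2 fell by 1.24. On the LIF side the signal-transducing receptor chain Il6st rose by 1.02 and the kinases Jak1 and Jak2 by 1.18 and 1.58. Stat3, the factor they activate, rose by 0.28. The Pim1 kinase gene and the feedback gene Socs2 fell, with ratios of -1.32 and -0.95.

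In the Wnt pathway 8 of 59 genes were higher and 12 lower, shares close to those over all transcripts. Secreted inhibitors made the largest rises. Sfrp1, which binds Wnt ligands, read 7.35, 7.53 and 7.64 in WT and 9.69, 9.71 and 9.69 in Dicer KO, and Notum, which strips the lipid from Wnt, rose by 1.93. Sfrp2, of the same family as Sfrp1, fell by 1.10, and Sfrp4 fell by 0.87. Porcn, which adds the lipid, rose by 1.53 and is X-linked. Among receptors Fzd6 rose by 1.45, and among transcription factors Tcf7l2 rose by 0.88 while Lef1 fell. Axin2, a feedback target, fell by 0.61 ± 0.10.

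Of 51 genes of the TGF-beta, Nodal and BMP pathways 16 were higher and 12 lower. The ligand gene Bmp4 read 8.67, 8.98 and 8.93 in WT and 6.79, 6.90 and 6.83 in Dicer KO, a ratio of -2.02 ± 0.09. The Id genes, common targets of BMP, split: Id2 and Id4 rose by 1.48 and 1.00, and Id3 fell by 0.37. Inhbb, an activin subunit, rose by 1.48, Lefty1 rose by 0.67, and Nodal, at 0.02, was not called. Skil, a repressor of Smad proteins, fell by 1.08.

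In the Hedgehog and Notch pathways 6 of 36 genes were higher and 10 lower. Notch3 read 8.55, 8.46 and 8.48 in WT and 7.08, 7.04 and 7.17 in Dicer KO, and the ligand gene Dll3 fell by 1.10. The receptor genes Notch1 and Notch4 rose by 0.68 and 0.74, and Hes1, a target of Notch, by 1.26 ± 0.07. Hhip, which binds Hedgehog ligands, rose by 2.48, and Smo, the signal transducer, fell by 0.79.

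Of 23 DNA methylation genes 9 were higher and 8 lower, and the enzymes that set new methylation marks held the lowest positions. Dnmt3a read 10.57, 10.62 and 10.61 in WT and 8.52, 8.54 and 8.49 in Dicer KO. Dnmt3l, their cofactor, read 11.49, 11.55 and 11.63 against 10.09, 10.06 and 10.13. Dnmt3b read 11.06, 11.20 and 11.16 against 9.78, 9.81 and 9.74. The ratios were -2.08 ± 0.04, -1.47 ± 0.05 and -1.36 ± 0.05, and the genotypes were far apart for all 3. The maintenance enzyme Dnmt1 and its partner Uhrf1 were not called, at 0.13 and 0.04. Of the Tet dioxygenases Tet3 rose by 0.53 and Tet1, at 0.10, was not called, while Tdg, which removes oxidised methylcytosine, fell by 0.61. The methyl-CpG readers Zbtb38 and Mbd2 rose by 1.33 and 1.25, and Mbd3, which lacks strong affinity for methyl-CpG, fell by 0.41.

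Among 36 Polycomb and histone modifier genes 13 were higher and 9 lower, with 8 to 13 and 5 to 11 over other settings. Bmi1, of Polycomb repressive complex 1, read 7.09, 7.35 and 7.30 in WT and 8.85, 9.09 and 9.14 in Dicer KO, a rise of 1.78 ± 0.10. In Polycomb repressive complex 2 the accessory gene Aebp2 rose by 0.95, Ezh1 by 0.72 and Suz12 by 0.32, and Ezh2, at -0.01, was not called. Cbx7, the chromobox protein typical of ES cells, fell by 0.67.

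Genes of the interferon response and of nucleic acid sensing were higher in 19 of 41 cases and lower in 3. The dsRNA-activated Oas2 and Oas1a rose by 1.87 and 1.43, and the kinase gene Eif2ak2 by 0.99. The adaptors rose as well: Tmem173 (STING) read 6.60, 6.39 and 6.35 in WT and 8.47, 8.57 and 8.54 in Dicer KO, and Mavs read 8.05, 8.23 and 8.21 against 9.26, 9.26 and 9.19. Of the RNA helicase sensors Ddx58 (RIG-I) rose by 0.63, and Ifih1 was not called. Tlr3 read 4.47 to 4.60 on all arrays. The classic induced gene Isg15 was not called, at -0.22, and Ifitm3, which is high in ES cells, fell by 0.82. The rises thus covered some sensors, adaptors and other members such as B2m (1.32) and Irf9 (0.99). Exceptions were found among sensors and induced genes alike.

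Several smooth muscle genes under serum response factor fell. Of 37 SRF targets and contractile genes 14 were lower and 9 higher, with a median of -0.17. Tagln read 9.02, 9.22 and 9.39 in WT and 6.71, 6.94 and 6.72 in Dicer KO, Myl9 read 8.33, 8.43 and 8.53 against 6.73, 6.71 and 6.74, and Flnc read 7.90, 8.08 and 8.09 against 6.76, 6.69 and 6.65. Cnn1 fell by 1.33 ± 0.13, and all 4 encode parts of the contractile apparatus or its actin links. Tagln2, a relative of Tagln found in many cell types, rose by 1.47, Csrp1 by 1.10 and the tropomyosin gene Tpm4 by 0.91. Fhl1, up by 1.02, is X-linked, and without X-linked members 7 of 35 were higher.

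Adhesion genes were higher in 23 of 44 cases and lower in 7, with a median of 0.19. Dsp, which links desmosomes to intermediate filaments, read 7.47, 7.61 and 7.69 in WT and 9.66, 9.66 and 9.60 in Dicer KO, a rise of 2.05 ± 0.07. Dsg2, a desmosomal cadherin, rose by 1.38, and Pkp2, of the desmosomal plaque, fell by 1.01. The integrin genes Itgav and Itgb3, which together encode a vitronectin receptor, rose by 1.61 and 1.36, and Itga5 and Itga6 by 0.89 and 0.78. The tight junction genes Cldn3 and Cldn7 rose by 1.32 and 1.12. Cdh1 and Epcam, the epithelial markers of ES cells, were not called, at -0.13 and 0.00. Vim, often used as a mesenchymal marker, read 9.73, 9.86 and 9.89 in WT and 11.45 on each Dicer KO array.

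Keratins did not move together. Of 11 measured 3 were higher, Krt17, Krt19 and Krt42, with ratios of 3.47, 1.18 and 0.56. Krt8 and Krt18, the partners of simple epithelia, were lower, with ratios of -0.45 and -0.52. The remaining 6, which include Krt5, Krt14 and Krt10 of stratified epithelia, were not called.

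Among 40 genes of the extracellular matrix and its remodelling 14 were higher and 6 lower. Nid1, a basement membrane linker, read 8.60, 8.74 and 8.75 in WT and 10.38, 10.36 and 10.36 in Dicer KO, and Sparc read 10.37, 10.40 and 10.46 against 12.13, 12.07 and 12.09. Laminin chains split, with Lamb2 up by 0.92, Lamc1 up by 0.88 and Lamb1 down, at -1.23. The inhibitors of metalloproteinases split likewise: Timp3 rose by 1.72, the X-linked Timp1 rose by 1.18, and Timp2 fell by 0.84.

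Lysosome genes rose in 25 of 37 cases and fell in 3, with a median of 0.31. Because 4 of these 25 are X-linked, the count was also taken without that chromosome: 21 of 33 were higher and 3 lower, with a median of 0.26. Cd63, a tetraspanin of late endosomes, read 7.29, 7.49 and 7.58 in WT and 9.20, 9.21 and 9.10 in Dicer KO. The proteases Lgmn, Ctsa and Ctsb rose by 1.11, 0.92 and 0.86, the lipid hydrolase gene Asah1 by 0.93 and the glycogen-degrading Gaa by 0.90, so the rises covered enzymes of several substrates. Lamp2, the membrane protein with the largest rise of the list, 2.24, and Atp6ap1, an accessory subunit of the proton pump, at 0.90, are X-linked. Glb1 and Ctsz fell, with ratios of -0.27 and -0.25.

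Of 34 genes of sterol and fatty acid synthesis 16 were higher and 5 lower. Abca1, which exports cholesterol, read 7.13, 7.25 and 7.02 in WT and 9.17, 9.34 and 9.16 in Dicer KO, a rise of 2.09 ± 0.08. It acts opposite to synthesis. Insig1, which retains the sterol sensor in the endoplasmic reticulum, rose by 0.52. The synthetic enzyme Ebp rose by 1.93 and is X-linked. In fatty acid synthesis Acaca, the committed enzyme, fell by 0.66, and Fasn, at -0.12, was not called. Without X-linked members 14 of 32 were higher.

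One-carbon and amino acid genes were mostly lower, 19 of 35 against 9 higher. Phgdh, which commits glycolytic carbon to serine, read 9.32, 9.35 and 9.39 in WT and 8.11, 7.64 and 7.83 in Dicer KO, a ratio of -1.50 ± 0.11. Downstream, Shmt1 fell by 0.81, the glycine decarboxylase gene Gldc by 0.68 and Mthfd2 by 0.49. The route did not fall as a whole: Psat1 and Psph, at -0.12 and -0.07, were not called, and Shmt2 rose by 0.36. The transporter gene Slc38a2 fell by 0.91, and Cbs, which takes serine to cystathionine, by 0.89. Cth, the next enzyme, rose by 0.84. Without X-linked members 19 of 33 were lower and 7 higher, with a median of -0.32.

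Glycolysis and hypoxia genes were lower in 16 of 31 cases and higher in 6, again by small amounts, and no member changed by 2-fold. The lactate exporter gene Slc16a3 fell by 0.93, Pfkfb3 by 0.63, Ldha by 0.35 and Hk2 by 0.27. Slc2a1, the glucose transporter, was not called, at -0.08. Pfkp rose by 0.80 and the oxidase gene Ero1a by 0.88.

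Subunits of oxidative phosphorylation were called at about the share of all transcripts, 8 of 43 higher and 6 lower, and the counts ran from 4 to 15 and from 3 to 10 over other settings. Ribosomal protein genes were higher in 1 of 68 cases, the X-linked Rpl10, and lower in 14, a count that ran from 7 to 23. The ribosomal differences ran from -0.84 to 0.16, and the call of Rpl10 was lost in 5 of the 6 fits that left out an array.

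Metal-handling genes were called in 18 of 24 cases, 10 higher and 8 lower. Tfrc, which brings in iron, rose by 0.61. Slc40a1, which exports it, fell by 1.11, Hmox1, which frees it from heme, by 0.78, and the ferritin chain gene Fth1 by 0.42. Steap1, a metalloreductase, read 7.10, 7.65 and 7.63 in WT and 5.96, 5.72 and 6.05 in Dicer KO. The copper importer gene Slc31a1 rose by 0.94, and the copper pump gene Atp7a, X-linked, by 1.00.

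Imprinted genes were lower in 21 of 41 cases and higher in 8, with a median of -0.21. Peg10, a gene derived from a retrotransposon, read 11.40, 11.37 and 11.43 in WT and 9.46, 9.46 and 9.41 in Dicer KO, a ratio of -1.96 ± 0.04. Phlda2, expressed from the maternal copy, fell by 2.57, and Cdkn1c, another maternally expressed gene, by 1.04. Of the paternally expressed genes Snrpn fell by 1.24, Mest by 1.10 and Sfmbt2 by 0.99, whereas Ndn, in the same imprinted region as Snrpn, rose by 1.24. Meg3, a maternally expressed noncoding RNA, fell by 0.53. Falls were thus found on genes of either parental allele. Cd81, in the same region as Phlda2, rose by 1.18.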

How the data were processed

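Total RNA of WT and Dicer KO ES cells was hybridised to Affymetrix mouse gene ST arrays, and the log2 values per transcript cluster deposited by the authors were used as given. The methods name RMA and the submitters' processing notes GCRMA, so which of these made the table is not settled, and no version is given for either. Array medians over the table ran from 6.49 to 6.56. Either method can compress the differences of dim clusters, which was not tested here, and the number of arrays limits the precision. Clusters were named through GEO's platform annotation, which can be old: 23410 of 35557 carried a symbol (21797 a single one, 1613 several), and 327 clusters of miRNA genes alone, 78 Y-linked and 4 mitochondrial clusters were left out of the 23001 counted. Chromosomes come from RefSeq (GRCm38.p6), through which 22437 were placed on 1 chromosome. Clusters with identical values on all arrays of a genotype numbered 459 in WT and 620 in Dicer KO.

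Genotypes were taken from sample titles. Dicer KO and WT were compared with limma 3.58.1 (lmFit, eBayes; R 4.3.3) over the 6 arrays with 4 residual degrees of freedom, and p-values were Benjamini-Hochberg adjusted over all counted transcripts, called under 0.05. SAM, the test named in the methods, was an alternative. The procedure was run on simulated arrays with independent noise and few changed transcripts, which checks the code and not the calls made here. Same-numbered replicates did not deviate together, so the numbers were not taken as pairs. A list gene was represented by its cluster with a single symbol and the highest mean signal. Of the genes named here, Ago2, Dab2, Socs2, Tet3 and Zic5 were called in that cluster and not in another. Lists are described by counts and medians, with no set test. Named genes were those of the label check, the 12 largest differences each way, the 6 largest each way in the top 10% of signal, the 6 largest each way that crossed from below the median to above the 80th percentile, and in each list the 4 with the smallest adjusted p and the 2 largest against the main direction, or all members of short lists. The 12 largest each way were taken only among called transcripts whose WT and Dicer KO arrays did not overlap. In all choices by largest difference over the whole array, clusters with several symbols, predicted genes, Rik clones and accession-like symbols were passed over. Other list members were named after their values were seen. Members and lists were chosen with earlier results of these data known. The planned grouping of transcripts by miRNA seed sites was not run, since no transcript ends were given.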

Additional observations from a re-analysis of the deposited data

How the results depend on the processing

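Of the called list members and named genes 0 changed direction under any alternative run, and the counts called higher and lower stayed within 1.5 times the main ones except under a stricter rule. Requiring 1.5-fold left 1650 higher and 849 lower, so that 66.0% of calls were rises against 48.9% without it, and an adjusted p under 0.01 left 2457 lower. Leaving out 1 array gave 3229 to 3984 higher and 3058 to 4471 lower. A replicate block, though same-numbered arrays did not deviate together (correlations of -0.04, 0.13 and -0.14), gave 3685 and 3681, and SAM gave 3560 and 3428. Cyclic loess gave 4615 and 3742, and without X-linked transcripts, an alternative chosen after the X-linked shift was seen, there were 3643 and 4006.

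The 1107 list members and named genes include uncalled ones, which had no call to lose. When 1 array was left out, 23 to 103 of the 1107 lost the call, a larger share of the called ones alone. Among genes named in the text these were Fn1 (lost without WT replicate 3 or any Dicer KO replicate, adjusted p up to 0.066), Mesp1 (without any array but Dicer KO replicate 3, up to 0.12), Rpl10 (without any but WT replicate 1, up to 0.10), Stra8 (without WT replicate 2 or 3 or Dicer KO replicate 1 or 2, up to 0.10), Ago2 (without Dicer KO replicate 2, 0.050), Bmpr2 (without Dicer KO replicate 1, 0.052), Sycp3 (without any but WT replicate 1, up to 0.12), Rec8 (without any Dicer KO replicate, up to 0.061) and Xist (without WT replicate 2 or 3 or Dicer KO replicate 2 or 3, up to 0.12). Sox7, Gata3, Elf5, Irf9, B2m, Shmt2 and Dusp1 are not covered by this list. The difference of Dgcr8 was not called with the replicate block. The grouping by miRNA seed sites, planned with a choice between site definitions, was not run. Dim transcripts gave few calls, and a difference there was hard to detect with 3 arrays.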
